A study of Homo sapiens with 4 samples.

Results

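Cell cycle genes were read in the mouse cells of human breast tumours grown in mice, to describe which host cells were dividing. The set holds 36 genes, listed by name, and all 36 were found among the 32285 mouse genes of the matrices. Of these, 15 act around DNA replication: the helicase subunits Mcm2, Mcm3, Mcm4, Mcm5, Mcm6 and Mcm7, the loading and firing factors Cdc6 and Gins2, the polymerase clamp Pcna (ENSMUSG00000027342), the nucleotide synthesis genes Tyms, Rrm1 and Rrm2, the cyclin Ccne2, and the chromatin factors Uhrf1 and Hells. Another 20 act from late S phase to the end of mitosis: Mki67 (ENSMUSG00000031004), Top2a (ENSMUSG00000020914), Cenpf, Cenpe, Ccnb1, Ccnb2, Ccna2, Cdk1, Ube2c, Birc5, Aurka, Aurkb, Plk1, Bub1, Bub1b, Kif11, Kif20a, Tpx2, Nusap1 and Cdc20. The last, Hmgb2 (ENSMUSG00000054717), encodes a chromatin protein that is abundant in dividing cells and also in some cells that do not divide, and it was described apart.

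A dividing cell first copies its DNA and then separates the copies. MCM helicases and their loaders open the origins, PCNA clamps the polymerases to the template, and TYMS and ribonucleotide reductase supply nucleotides. In G2 and mitosis the cyclin B and CDK1 kinase, the Aurora and Polo kinases, spindle motors and the ubiquitin ligase around CDC20 and UBE2C take over, and most of these transcripts are low in resting cells. In a wound or tumour bed, fibroblasts, new vessel endothelium, macrophages and activated natural killer (NK) cells can divide in place, whereas neutrophils leave the cycle in bone marrow.

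MCF10DCIS.com, a human line that models ductal carcinoma in situ, was seeded on decellularised mammary gland matrix of mice aged 2 to 3 months (young) or 18 months and more (aged). After 12 days in culture the seeded matrix was implanted in the right or left fat pad of Rag1-/- hosts, a genotype without mature lymphocytes of the T and B lineages. The tumour and the stroma around it were taken 4 weeks later. Young and aged therefore name the age of the matrix donor; both groups share the Rag1-/- host genotype, the tumour line and the culture, and the age of the recipients was not given in the sources used here. Each group had 1 gene expression library (10x 3′ chemistry), a pool of cells cleared of dead cells and stained with human hashing antibodies, and how many animals stand behind each pool was not stated. With 1 library per group no test was possible: all intervals are exact 95% intervals of counting error and say nothing of the spread between animals, and the limit given for a count of 0 is 3 counts of the total. Intervals of levels and ratios take each UMI as independent, so they also leave out the spread between cells.

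The young and aged pools held 16965 and 17757 barcodes. Of these, 13102 and 14238 were mouse by the rule that mouse genes give at least 90% of a barcode's gene UMIs (unique molecular identifiers, each standing for 1 captured transcript), and 11946 and 12924 remained after filters on depth, mitochondrial share and doublets. They held 65136469 and 71000331 mouse UMIs, with medians of 2285.5 and 2261 per cell. The pools shared 143 barcodes among these cells, 119 of them in the same class. A human cell's transcripts added little: the human counterparts of the 36 genes gave 1310 and 1404 UMIs in the mouse cells, against 68846 and 68004 UMIs of the mouse genes. In human tumour barcodes, the 35 genes other than Hmgb2 stood at 158 and 196 CPM (UMIs scaled to 1e6) of the stray mouse UMIs.

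Cells were clustered without the 36 genes and without other cell cycle genes, so that dividing cells would fall with the cell type they belong to. Inhibitors of the cycle were kept in. Of the classes described here, the young and aged pools held 700 and 1089 fibroblast-like, 124 and 121 endothelial-like, 557 and 577 macrophage-like, 591 and 723 monocyte-like, 143 and 247 NK-like, and 9480 and 9792 neutrophil-like cells. Defining markers fell where the names place them: Gzma, a cytotoxic granule protease, stood at 3313 and 3805 CPM in NK-like cells and at most at 2.45 CPM in the other 5 classes, and the vascular cadherin gene Cdh5 at 1365 and 1306 CPM in endothelial-like cells. C1qa, a complement gene of tissue macrophages, stood at 2893 and 3689 CPM in macrophage-like cells, and Ccr2, a chemokine receptor of monocytes, at 961 and 1039 CPM in monocyte-like cells. The 12 fibroblast markers summed to 21885 and 32706 CPM in fibroblast-like cells and at most to 1276 CPM in the other 5 classes. The calprotectin gene S100a8 was at 52460 and 49135 CPM in neutrophil-like cells and still at 800.3 to 2131 CPM in the other 5, so neutrophil RNA was present in all classes. The 8 T cell markers summed to 367 and 363 CPM in NK-like cells. Most of this was Trbc2, a T cell receptor constant region gene, at 269 and 299 CPM, followed by the CD3 chain genes Cd3g at 53.7 and 36.5 CPM and Cd3d at 29.6 and 22.1 CPM. Trac had 8.76 and 6.20 CPM and Cd3e 5.48 and 0 CPM, and Cd4, Cd8a and Cd5 were at 0.

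In both pools 4 kinds of host cell held most dividing cells, and neutrophil-like cells, the most numerous class, held almost none. A cell is called cycle-positive here when, after every cell was thinned to 2000 UMIs, it had UMIs of at least 3 of the 35 genes; cells below 2000 UMIs were left out. In the young pool the share was 19.0% of endothelial-like cells (23 of 121; 12.4 to 27.1%), 15.4% of NK-like cells (19 of 123; 9.56 to 23.1%), 10.4% of fibroblast-like cells (72 of 695; 8.19 to 12.9%) and 9.55% of macrophage-like cells (51 of 534; 7.19 to 12.4%). The aged pool gave 8.55% for endothelial-like (10 of 117; 4.17 to 15.2%), 15.1% for NK-like (33 of 218; 10.7 to 20.6%), 7.84% for fibroblast-like (85 of 1084; 6.31 to 9.60%) and 7.12% for macrophage-like cells (39 of 548; 5.11 to 9.60%). Intervals of these 4 classes overlap in many pairs, and within each class the intervals of the pools overlap, so their order is not settled by counting alone.

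Monocyte-like cells stood lower, at 2.43% (14 of 577; 1.33 to 4.04%) and 1.14% (8 of 702; 0.493 to 2.23%). Only 1 of 4861 and 1 of 4671 neutrophil-like cells qualified, 0.0206% (up to 0.115%) and 0.0214% (up to 0.119%), and this is the background for a share of cells. An unnamed cluster with neutrophil granule genes, kept out of that class, had 2 of 70 (2.86%) and 2 of 89 (2.25%). No neutrophil-like cell had 3 genes of the mitotic set; 3 counts of the total would be a share of 0.0617% and 0.0642%. The intervals of monocyte-like cells lie above those of neutrophil-like cells and below those of the other 4 classes in both pools.

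Depth differed between classes and sets what an unthinned share can show. Median UMIs per cell were 24760.5 and 21685 in fibroblast-like, 14307.5 and 13245 in endothelial-like, 10397 and 9105 in macrophage-like, 7579 and 7611 in monocyte-like, 4560 and 4318 in NK-like, and 2027.5 and 1954 in neutrophil-like cells. Without thinning the shares were 58.6% and 47.2% in fibroblast-like, 50% and 43.8% in endothelial-like, 31.2% and 29.3% in macrophage-like, 24.5% and 26.7% in NK-like, 14.2% and 10.1% in monocyte-like, and 0.0211% and 0.112% in neutrophil-like cells. The deepest class thus came first, and NK-like cells moved from near the top to below macrophage-like cells. Neutrophil-like cells were lowest on either count.

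**Figure D1:**
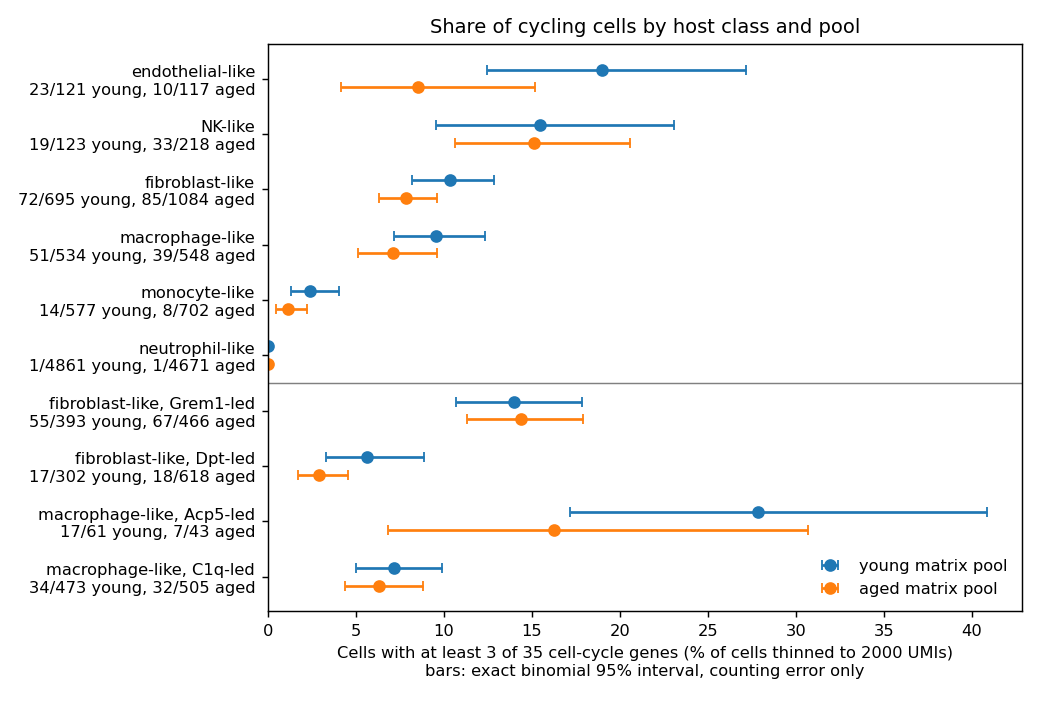
Share of cells (%, horizontal axis) with UMIs of at least 3 of 35 cell cycle genes after thinning to 2000 UMIs, by host class and for 4 clusters within the fibroblast-like and macrophage-like classes; points are the young (blue) and aged (orange) pools and bars are exact 95% intervals of counting error. Endothelial-like, NK-like, fibroblast-like and macrophage-like cells sit between 7.12% and 19.0%, monocyte-like cells at 2.43% and 1.14%, and neutrophil-like cells near 0.02%.

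Counted over all host cells at that depth, 189 of 7160 (2.64%) and 191 of 7594 (2.52%) were cycle-positive. Fibroblast-like cells made up 38.1% and 44.5% of them, macrophage-like cells 27.0% and 20.4%, endothelial-like cells 12.2% and 5.24%, and NK-like cells 10.1% and 17.3%. Monocyte-like cells gave 7.41% and 4.19%. Neutrophil-like cells, at 67.9% and 61.5% of the cells counted, gave 0.529% and 0.524%.

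Cells with genes of each of the 2 sets were also counted apart. The sets differ in gene number and in level, so these shares do not compare the numbers of cells in each stage of the cycle. Cells with 3 or more genes of the replication set were 4.17% and 2.68% of fibroblast-like cells, and cells with 3 or more of the mitotic set were 6.19% and 5.35%. Endothelial-like cells had 7.44% and 5.13% for replication against 12.4% and 5.13% for mitosis, so the pools lay further apart in the mitotic count (15 of 121 and 6 of 117 cells) than in the replication count (9 and 6 cells). NK-like cells leaned the other way, with 9.76% and 10.1% for replication and 7.32% and 7.34% for mitosis. Their intervals overlap, at 5.14 to 16.4% against 3.40 to 13.4% in the young pool. Macrophage-like cells had 4.49% and 4.38% for replication and 5.99% and 4.20% for mitosis, while monocyte-like cells had 1.04% and 0.570% against 0.520% and 0.712%. The intervals of the 2 sets overlap in each of these classes and pools except in aged fibroblast-like cells.

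Within the fibroblast-like class the share of cycle-positive cells was higher in 1 of 2 clusters. The first cluster was led by Dpt, Ogn and Clec3b, matrix and matrix-associated genes of quiescent connective tissue; the other was led by Grem1, which encodes a BMP antagonist, Crabp1, which binds retinoic acid, and the chromatin gene Hmga2. Cycle-positive cells were 5.63% (17 of 302; 3.31 to 8.86%) and 2.91% (18 of 618; 1.74 to 4.56%) of the Dpt-led cluster, against 14.0% (55 of 393; 10.7 to 17.8%) and 14.4% (67 of 466; 11.3 to 17.9%) of the Grem1-led cluster, with intervals apart in both pools. The 12 fibroblast markers, Dpt among them, summed to 52746 and 58922 CPM in the Dpt-led and to 11349 and 14044 CPM in the Grem1-led cluster. The Grem1-led cluster made up 56.9% of young and 43.1% of aged fibroblast-like cells. Its cells were deeper (medians of 39637 and 32131 UMIs against 17833 and 18610.5), and the share was taken after thinning both clusters to 2000 UMIs. Other measures gave another order in the young pool. There the mitotic set stood at 546 CPM (527 to 565) in the Dpt-led and 507 CPM (496 to 517) in the Grem1-led cluster, against 191 and 612 CPM in the aged pool. Thinned cells with 10 or more of the 35 genes were 10 of 302 and 2 of 618 (Dpt-led), and 6 of 393 and 7 of 466 (Grem1-led).

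Macrophage-like cells also came in 2 clusters. The larger was led by the complement genes C1qa, C1qb and C1qc with Mmp12 and Arg1, and held 7.19% (34 of 473; 5.03 to 9.90%) and 6.34% (32 of 505; 4.37 to 8.83%) cycle-positive cells. The smaller was led by Acp5, Ctsk, Dcstamp and Ocstamp, genes known from osteoclasts and other fusing macrophages, and held 27.9% (17 of 61; 17.1 to 40.8%) and 16.3% (7 of 43; 6.81 to 30.7%). The intervals of these 2 clusters are apart in the young pool and overlap in the aged pool. The Acp5-led cells were also deeper, with medians of 22884 and 26081 UMIs against 9623 and 8718.5. Their macrophage markers were lower: the 12 markers summed to 4153 and 6135 CPM, against 36745 and 42075 CPM in the C1q-led cluster. The 12 neutrophil markers summed to 8848 and 9479 CPM in the Acp5-led and to 5542 and 3976 CPM in the C1q-led cluster.

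Levels of the genes themselves, summed over the cells of a class and divided by the mouse UMIs of that class (CPM), put NK-like cells first for replication genes. Their 15 replication genes summed to 986 CPM (922 to 1052) and 799.7 CPM (754 to 847). Endothelial-like cells followed at 448 CPM (419 to 479) and 356 CPM (329 to 384), macrophage-like cells at 332 CPM (319 to 345) and 377 CPM (363 to 392), and fibroblast-like cells at 296 CPM (289 to 303) and 245 CPM (239.6 to 251). Monocyte-like cells had 199.8 and 160.3 CPM and neutrophil-like cells 53.5 and 61.1 CPM. The second and the third place change hands between the pools, where endothelial-like and macrophage-like cells overlap in the aged pool. All 36 genes had at least 1 UMI in each of the 6 classes in both pools, and since 3′ counts are not divided by transcript length, an order between genes is an order of UMIs.

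Pcna gave the most UMIs of the replication set in 5 of the 6 classes, at 194 and 165 CPM in NK-like, 124 and 121 CPM in macrophage-like, 74.0 and 74.9 CPM in monocyte-like, 51.2 and 46.3 CPM in fibroblast-like, and 37.6 and 43.7 CPM in neutrophil-like cells. In endothelial-like cells it had 89.7 and 73.6 CPM, next to Tyms, which encodes thymidylate synthase, at 94.4 and 74.7 CPM. Pcna also serves DNA repair, and its weight in the set was highest where dividing cells were fewest: 70.1% and 71.6% of the replication UMIs in neutrophil-like cells were Pcna, against 17.3% and 18.9% in fibroblast-like and 19.7% and 20.6% in NK-like cells. Monocyte-like cells (37.0% and 46.7%) and macrophage-like cells (37.3% and 32.2%) lay between. A Pcna level alone therefore orders the classes differently from the other genes.

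Beyond Pcna, the helicase subunit genes stood out in NK-like cells, with Mcm6 at 115 and 82.0 CPM and Mcm3 at 76.7 and 77.9 CPM. In endothelial-like cells Rrm1, the large subunit of ribonucleotide reductase, had 40.1 and 22.3 CPM. Fibroblast-like cells had Rrm1 at 37.5 and 34.2 CPM and Tyms at 35.8 and 31.0 CPM. Macrophage-like cells had Mcm3 at 28.0 and 32.7 CPM and Rrm1 at 23.0 and 28.0 CPM, and monocyte-like cells had Mcm4 at 26.8 and 22.9 CPM and Mcm3 at 16.5 and 8.87 CPM. In neutrophil-like cells the next genes after Pcna were Mcm4 at 4.67 and 6.24 CPM and Gins2, a subunit of the replicative helicase complex, at 2.86 and 2.04 CPM. The other 12 replication genes ranged from 4.38 to 82.1 CPM in NK-like cells, from 2.09 to 27.1 CPM in endothelial-like, from 2.45 to 27.0 CPM in fibroblast-like, from 1.79 to 23.1 CPM in macrophage-like, from 0.174 to 11.2 CPM in monocyte-like and from 0.0440 to 2.49 CPM in neutrophil-like cells.

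The 20 mitotic genes separated the classes more widely than the replication genes did. NK-like cells summed to 1117 CPM (1049.6 to 1188) and 946 CPM (896 to 997). Endothelial-like cells stood close to them in the young pool, at 997 CPM (953 to 1043), and far below in the aged pool, at 278 CPM (255 to 304). Fibroblast-like cells had 517 CPM (507 to 526) and 437 CPM (429 to 445), and macrophage-like cells 411 CPM (396 to 426) and 407 CPM (392 to 423). Monocyte-like cells followed with 96.2 CPM (87.6 to 105) and 130.2 CPM (121 to 139.9), and neutrophil-like cells with 12.9 CPM (11.4 to 14.4) and 15.2 CPM (13.6 to 16.9). The endothelial-like class was thus in the second place in the young pool and in the fourth in the aged pool.

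Top2a, the topoisomerase that untangles chromosomes, and Mki67, which encodes the Ki-67 protein that coats mitotic chromosomes, led the mitotic set in NK-like cells at 255 and 207 CPM and at 222 and 165 CPM. Birc5, the survivin gene of the chromosomal passenger complex, followed there at 98.6 and 85.5 CPM. Fibroblast-like cells were led by Ube2c, a ubiquitin carrier of mitotic exit, at 67.8 and 55.7 CPM, followed by Top2a at 58.1 and 47.0 CPM and Birc5 at 47.1 and 41.5 CPM, with Mki67 at 41.9 and 36.6 CPM. In endothelial-like cells Mki67 had 110.0 and 38.1 CPM, Ube2c 119.9 and 16.3 CPM, and Top2a 92.3 and 40.9 CPM. Macrophage-like cells had Mki67 at 69.3 and 90.2 CPM, Top2a at 54.4 and 55.5 CPM and Birc5 at 42.6 and 36.5 CPM.

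Monocyte-like and neutrophil-like cells had few mitotic UMIs. Mki67 stood at 21.8 and 29.7 CPM, Ube2c at 17.8 and 14.4 CPM and Top2a at 9.94 and 18.1 CPM in monocyte-like cells. Neutrophil-like cells had Mki67 at 3.43 and 5.16 CPM, Top2a at 1.14 and 1.31 CPM and the spindle kinase gene Aurka at 0.837 and 1.40 CPM, from 292 and 336 UMIs of all 20 genes in 9480 and 9792 cells. The other 17 mitotic genes ranged from 4.38 to 85.5 CPM in NK-like, from 3.27 to 100.1 CPM in endothelial-like, from 7.0 to 42.5 CPM in fibroblast-like, from 3.81 to 40.2 CPM in macrophage-like, from 0.423 to 10.4 CPM in monocyte-like and from 0.0881 to 1.19 CPM in neutrophil-like cells. Kif20a, a motor gene of cytokinesis, was near the low end of the 20 in each of the 6 classes.

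Hmgb2 did not follow the other genes. It stood at 1239 CPM (1168 to 1313) and 999.6 CPM (949 to 1052) in NK-like cells, but also at 1052 CPM (1039 to 1066) and 949 CPM (936 to 962) in neutrophil-like cells, where the mitotic set was lowest. Monocyte-like cells had 441 and 423 CPM, endothelial-like cells 354 and 196 CPM, macrophage-like cells 343 and 349 CPM, and fibroblast-like cells 136 and 136 CPM. For this reason it was left out of the count of cycle-positive cells.

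**Figure D2:**
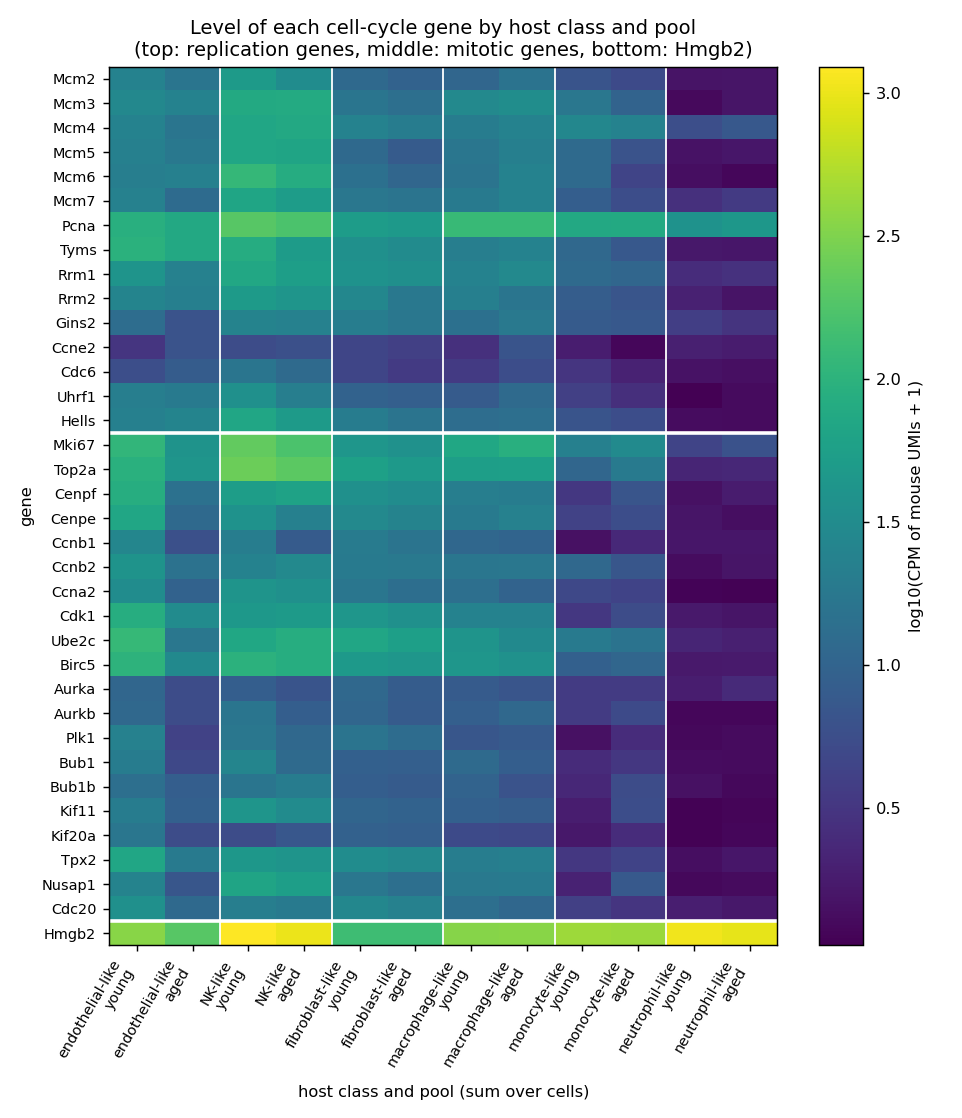
Summed level of each of the 36 genes in 6 host classes and both pools, as colour on a log10(CPM + 1) scale, with the replication genes, the mitotic genes and Hmgb2 in separate blocks. NK-like columns are high across both blocks, neutrophil-like columns are low except for Pcna and Hmgb2, and the mitotic block of endothelial-like cells is lower in the aged pool (278 CPM summed) than in the young pool (997 CPM).

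Set against the other classes gene by gene, NK-like cells were above the median of the other classes for nearly all measured members. They had the highest CPM of the 6 classes for 23 of the 36 genes in the young and 27 in the aged pool. Endothelial-like cells were highest for 12 in the young pool, 11 of them mitotic (Cdk1 at 86.0 against 44.9 CPM in NK-like cells, Ube2c at 119.9 against 70.1), and for 1 in the aged pool. A gene was counted when its CPM was at least 2 times the median of the other named classes in both pools, among genes with at least 20 UMIs in that class over both pools and at least 20 CPM in it or in that median. In NK-like cells this held for 27 of 28 measured members (all 13 replication genes, 13 of 14 mitotic genes and Hmgb2; the exception was Cdc20), where 16.8% of all measured genes did so. Fibroblast-like cells had 10 of 15, including 8 of 9 mitotic genes, beside 21.6% of all genes. Macrophage-like cells had 9 of 18, including 7 of 8 mitotic genes, beside 14.9%, and endothelial-like cells 10 of 27 beside 24%; in the aged pool most of their mitotic genes were below that limit. No measured member passed in monocyte-like cells (0 of 9, beside 15.4%), and in neutrophil-like cells Hmgb2 alone did (1 of 8, beside 17.5%). Members low in a class often had too few UMIs to be measured there, so these are counts over the measured members and not over all 36. The median was taken over the other classes of all 10 named ones, each counted alike. Among these were mast cell-like or basophil-like cells (6 and 24 cells) and dendritic-like cells (31 and 29), none of them cycle-positive.

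Mitotic transcripts lay in few cells. Cycle-positive cells held 95.5% and 94.8% of the mitotic UMIs of NK-like cells with 35.1% and 26.8% of their mouse UMIs, 92.4% and 89.5% of those of fibroblast-like cells with 16.1% and 11.9%, 92.8% and 83.4% of those of endothelial-like cells with 24.2% and 11.5%, and 90.0% and 81.4% of those of macrophage-like cells with 12.8% and 11.2%. These shares are partly fixed by the choice of cells, which used the same genes. In monocyte-like cells the shares were 49.0% and 62.3%, and a single aged cell held 33.6% of that pool's mitotic UMIs. Cells with 10 or more different mitotic genes, counted without thinning, numbered 61 and 77 among fibroblast-like, 31 and 23 among macrophage-like, 15 and 5 among endothelial-like, 7 and 12 among NK-like, 3 and 3 among monocyte-like and 0 and 0 among neutrophil-like cells. An unnamed cluster with neutrophil granule genes, kept out of that class, held 2 and 1.

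Cycle-positive cells were compared with the other cells of their class on genes that the count had not used, all at 2000 UMIs per cell. Hmgb2 stood at 2289 against 548 CPM (young) and 1924 against 441 CPM (aged) in NK-like cells, at 632 against 80.3 and 724 against 64.1 CPM in fibroblast-like, at 1461 against 251 and 1385 against 229.9 CPM in macrophage-like, at 1109 against 138 and 850 against 126 CPM in endothelial-like, and at 2607 against 361 and 1750 against 357 CPM in monocyte-like cells. It was thus several-fold higher in cycle-positive cells in all 5 classes and both pools, although the levels between classes did not follow division.

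Other genes of the same machinery, in lists written from textbook roles, were also higher in cycle-positive cells. A list of 20 spindle and kinetochore genes outside the set (Cenpa, Cdca8, Kif23, Ndc80 and others) summed to 1431 against 33.7 CPM and 1676 against 31.0 CPM in fibroblast-like cells, and to 1263 against 135 CPM and 1121 against 108 CPM in NK-like cells. The 14 origin licensing and firing genes, such as Orc6, Gmnn and Dbf4, stood at 472 against 98.7 CPM and 429 against 88.1 CPM in fibroblast-like cells. The 24 genes of DNA synthesis and nucleotide supply, such as Dut and Atad2, stood at 1974 against 654 CPM and 2000 against 554 CPM in NK-like cells. Entry regulators (20 genes, among them the D cyclins, Cdk4 and Myc) differed less, at 1632 against 827 CPM and 1582 against 674 CPM in fibroblast-like cells.

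In sum, inhibitors of the cycle were lower in the cycle-positive cells of NK-like and macrophage-like cells in both pools, beyond counting error. The 13 genes, among them the CDK inhibitor Cdkn1a and the antiproliferative genes Btg1 and Btg2, summed to 2421 against 3774 CPM and 2621 against 3946 CPM in NK-like cells, ratios of 0.642 (0.511 to 0.797) and 0.664 (0.564 to 0.778). In macrophage-like cells they summed to 1324 against 2098 and 1551 against 2096 CPM, ratios of 0.631 (0.526 to 0.751) and 0.740 (0.611 to 0.889). Fibroblast-like cells had 759 against 1301 CPM in the aged pool (ratio 0.583, 0.485 to 0.696), and an interval that includes 1 in the young pool, at 1097 against 1289 CPM (0.851, 0.718 to 1.003). Endothelial-like cells likewise had 957 against 1031 CPM (0.928, 0.654 to 1.29) in the young and 650 against 1178 CPM (0.552, 0.2899 to 0.961) in the aged pool. In monocyte-like cells, with 14 and 8 cycle-positive cells, 3071 against 3457 CPM (0.888, 0.709 to 1.1) and 3188 against 3536 CPM (0.901, 0.670 to 1.19) were within counting error, and Cdkn1a stood at 821 against 786 CPM in the young pool. Cdkn1a alone was within counting error in NK-like cells, at ratios of 0.755 (0.311 to 1.59) and 0.989 (0.564 to 1.64). Over all NK-like cells the list was led by Btg1, at 1231 and 1412 CPM, and Btg2, at 841 and 836 CPM. In macrophage-like cells the Cdkn1a ratios were 0.539 (0.360 to 0.779) and 0.739 (0.504 to 1.05). By class the 13 inhibitors summed highest in neutrophil-like cells, at 6185 and 6452 CPM (Btg1 at 2277 and 2487 CPM, Cdkn1a at 1688 and 1716 CPM), and lowest in endothelial-like cells, at 961 and 1085 CPM.

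**Figure D3:**
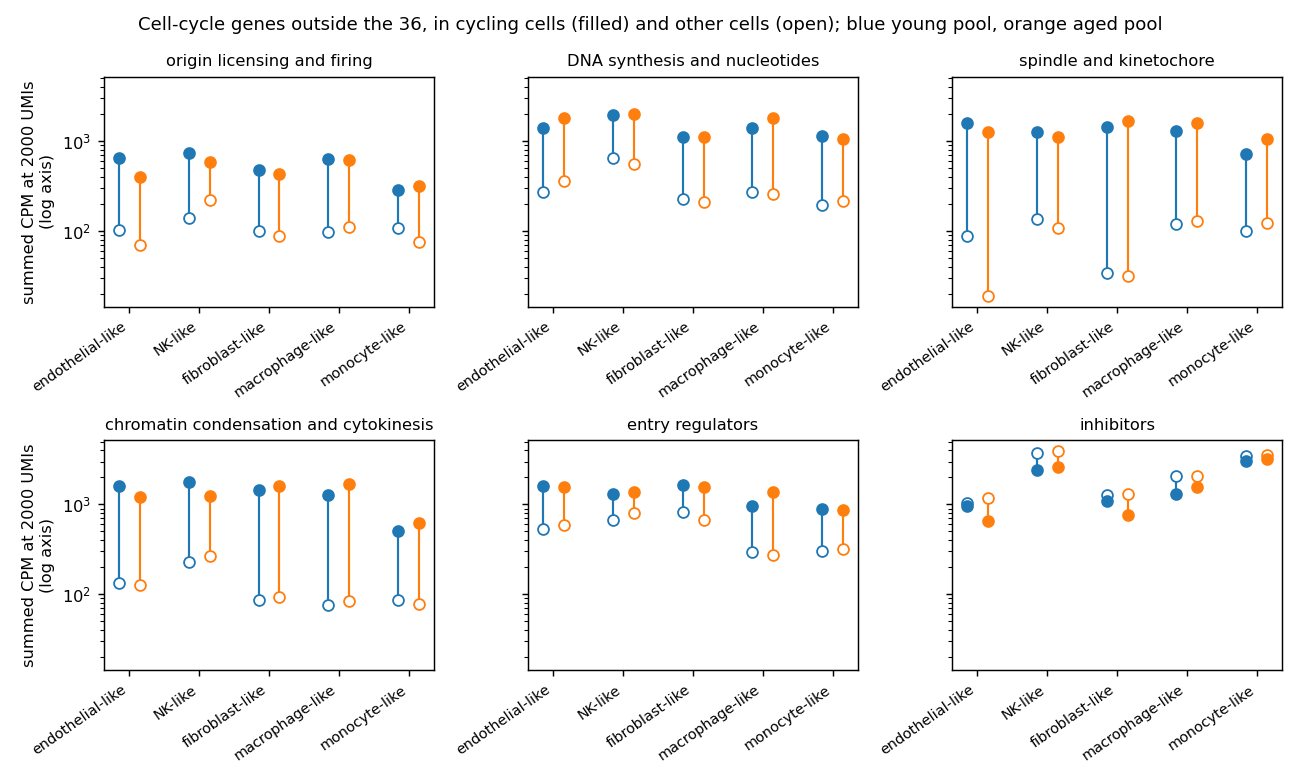
Summed CPM (log axis) of 6 lists of cell cycle genes outside the 36, in cycle-positive cells (filled) and in the other cells (open) of 5 host classes, each cell thinned to 2000 UMIs, for the young (blue) and aged (orange) pools. Filled points lie above open points for the replication, spindle and chromosome lists, and below them for the inhibitors in NK-like cells, at 2421 against 3774 CPM in the young pool.

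Depth, doublet score and stray markers were compared between the same cells. Cycle-positive cells were deeper, with medians of 46021 against 23431 and 39447 against 20944 UMIs in fibroblast-like cells, 15906 against 4782.5 and 12375 against 4327 in NK-like cells, 14349 against 10297 and 18738 against 9132 in macrophage-like cells, 19277 against 13664.5 and 14951.5 against 13245 in endothelial-like cells. Median doublet scores were 0.170 against 0.170 and 0.166 against 0.162 in fibroblast-like cells and 0.144 against 0.114 and 0.122 against 0.0779 in NK-like cells. The 12 neutrophil markers were lower in cycle-positive than in other cells of fibroblast-like (1659.7 against 4938 and 1812 against 3665 CPM) and macrophage-like cells (3333 against 5348 and 2359 against 4546 CPM). They were higher in young monocyte-like cells (11286 against 5371 CPM), where the aged pool had 2062.5 against 4452 CPM, and close in aged NK-like cells (3091 against 2940.5 CPM). Aged monocyte-like cells had doublet scores of 0.160 against 0.109. Their part in the results was not tested beyond thinning and the removal of doublets.

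Markers of the class itself were lower in sum in cycle-positive cells. The 12 markers of each class summed to 7395 against 16567 and 7909 against 19660 CPM in NK-like cells, to 21562.5 against 32739 and 24106 against 42065 CPM in fibroblast-like cells, to 25373 against 35971 and 27320.5 against 42778 CPM in macrophage-like cells, and to 9152 against 12520.4 and 9500.0 against 11486 CPM in endothelial-like cells. In NK-like cells Ncr1, an activating receptor, stood at 658 against 832 CPM and 788 against 824 CPM, whereas the chemokine gene Ccl5 stood at 474 against 6683 CPM and 1561 against 8057 CPM. Gzma lay between, at 3026 against 4596 and 1985 against 5276 CPM. In macrophage-like cells C1qa had 4225 against 3346 and 3885 against 4303 CPM, and the lipid carrier gene Apoe 13647 against 25681 and 15705 against 30287 CPM. The drop in Apoe was larger than that of the macrophage sum in the young pool and nearly as large in the aged pool. Of the 12 markers, 6 and 8 were lower in macrophage-like, 11 and 9 in NK-like, 12 and 11 in fibroblast-like, and 12 and 10 in endothelial-like cells. Fibroblast-like cells had Col1a1, a collagen gene, at 4479 against 6228 and 6118 against 7633 CPM, and Dpt at 236 against 815 and 224 against 993 CPM, where 55 of the 72 and 67 of the 85 cycle-positive cells belonged to the Grem1-led cluster. Pecam1, an endothelial adhesion gene, had 1043 against 1551 and 1100 against 1327 CPM in endothelial-like cells.

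Between the pools, the endothelial-like class showed the widest gap. To be measured, a gene needed 100 UMIs in all and a level of 20 CPM in 1 of the pools; it was then counted at a difference of 1.5-fold or more. Of 13 measured members 11 were lower in the aged pool by that rule and none was higher, where 1.83% of all 5233 measured genes were lower; the members' median log2 ratio was -1.50, against -0.01 for all genes. All 9 measured mitotic genes were among them, but 5 of the 9 reached 20 CPM in the young pool only, so that the count is partly set by the minimum. The 4 that reached it in both pools (Mki67, Top2a, Cdk1 and Birc5) were also lower by that rule. Ube2c, at 119.9 and 16.3 CPM, had the lowest aged to young ratio, 0.136 (0.0899 to 0.200), and Pcna, at 89.7 and 73.6 CPM, the highest, 0.820 (0.650 to 1.03). The centromere genes Cenpf (85.0 and 13.6 CPM, ratio 0.160) and Cenpe (68.3 and 10.9 CPM, ratio 0.160) and Birc5 (100.1 and 29.4 CPM, ratio 0.294) lay near the low end.

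By role, the endothelial-like difference lay in the mitotic genes. The 20 mitotic genes summed to 997 and 278 CPM, a ratio of 0.279 (0.253 to 0.308), and the 15 replication genes to 448 and 356 CPM, a ratio of 0.794 (0.716 to 0.880). Hmgb2 had 354 and 196 CPM, a ratio of 0.554 (0.486 to 0.631). Of the other lists, 5 of 5 measured genes of chromosome condensation and cytokinesis were lower by 1.5-fold (Smc4 at 126 and 71.9 CPM, Smc2 at 106 and 51.8 CPM), as were 2 of 2 spindle genes (Cenpa at 77.2 and 27.2 CPM, Cdca8 at 56.3 and 16.9 CPM), 2 of 3 origin genes and 2 of 6 entry regulators. None of 7 DNA synthesis genes and none of 7 inhibitors was 1.5-fold apart.

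Few cells held most of these UMIs. The 5 cells with the most mitotic UMIs held 51.1% of the young and 67.9% of the aged endothelial-like mitotic UMIs. Without the 5 cells with the most UMIs of the set in each pool, the mitotic sum was still lower in the aged pool, at 529 and 107 CPM, and 5 of 7 measured members were lower. Fibroblast markers also differed between the pools in this class: all 12 had UMIs in the aged pool, summing to 1276 CPM, against 10 of 12 summing to 37.5 CPM in the young pool, where Pdgfra and Fbln1 were at 0. Of the aged pool's 2341 fibroblast marker UMIs, 4 of 121 cells held 94.1%; without these 4 cells the sum was 80.8 CPM, the mitotic sum was 249.9 CPM, and 11 of 13 measured members were again lower. The share of all genes past 1.5-fold in these reduced sets of cells is not given here.

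Fibroblast-like cells as a class showed little difference between the pools. All 15 measured members had a ratio below 1, but only Rrm2, the small subunit of ribonucleotide reductase, passed 1.5-fold (27.0 and 16.9 CPM, ratio 0.626, 0.555 to 0.705), where 1.03% of all measured genes were lower. Rrm2 reached 20 CPM in the young pool only, and none of the 13 members that reached it in both pools was lower by that rule. The highest ratio was that of Hmgb2, 0.997 (0.951 to 1.04). The median log2 ratio of the members was -0.21, against -0.05 for all genes. The replication set had a ratio of 0.829 (0.802 to 0.857) and the mitotic set of 0.846 (0.825 to 0.867). With a purity limit of 98% in place of 90%, 80 of 157 cycle-positive and 559 of all 1789 fibroblast-like cells fell in unnamed clusters. In the cells named fibroblast-like at that limit 14 of 20 measured members were lower by 1.5-fold. Beside this, 1.90% of all genes were apart in either direction, and the cause was not tested.

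The 2 fibroblast-like clusters, read one by one, lay on opposite sides of 1 in the mitotic genes; the difference between them was not tested. In the Dpt-led cluster the mitotic set stood at 546 and 191 CPM, a ratio of 0.349 (0.331 to 0.368), and 11 of 14 measured members were at least 1.5-fold lower in the aged pool, among them all 10 measured mitotic genes, where 1.62% of all genes were lower. Of these 10, 9 reached 20 CPM in the young pool only, so the count is largely set by the minimum; the sum over all 20 genes does not use it. Top2a was lowest there, at 68.1 and 19.5 CPM (ratio 0.286), and Rrm1 highest, at 32.5 and 24.9 CPM (ratio 0.767). In the Grem1-led cluster the mitotic set stood at 507 and 612 CPM, a ratio of 1.21 (1.17 to 1.24). None of its 19 measured members was 1.5-fold apart, where 1.89% of all genes were; ratios ran from 0.808 for Rrm2 (29.9 and 24.1 CPM) to 1.40 for the cyclin gene Ccnb2 (17.8 and 24.9 CPM).

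Few cells held most of the Dpt-led mitotic UMIs. Those with 10 or more mitotic genes were 12 of 302 and 15 of 620, and the 5 cells with the most mitotic UMIs held 61.6% and 52.5% of them. Without these 5 cells in each pool the mitotic sum was 219.9 and 92.3 CPM, still lower in the aged pool. The Grem1-led cluster had 49 and 62 such cells, with 30% and 28.8% of the mitotic UMIs in the top 5 cells. Replication genes had ratios of 0.665 (0.621 to 0.712) in the Dpt-led and 0.971 (0.934 to 1.01) in the Grem1-led cluster.

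**Figure D4:**
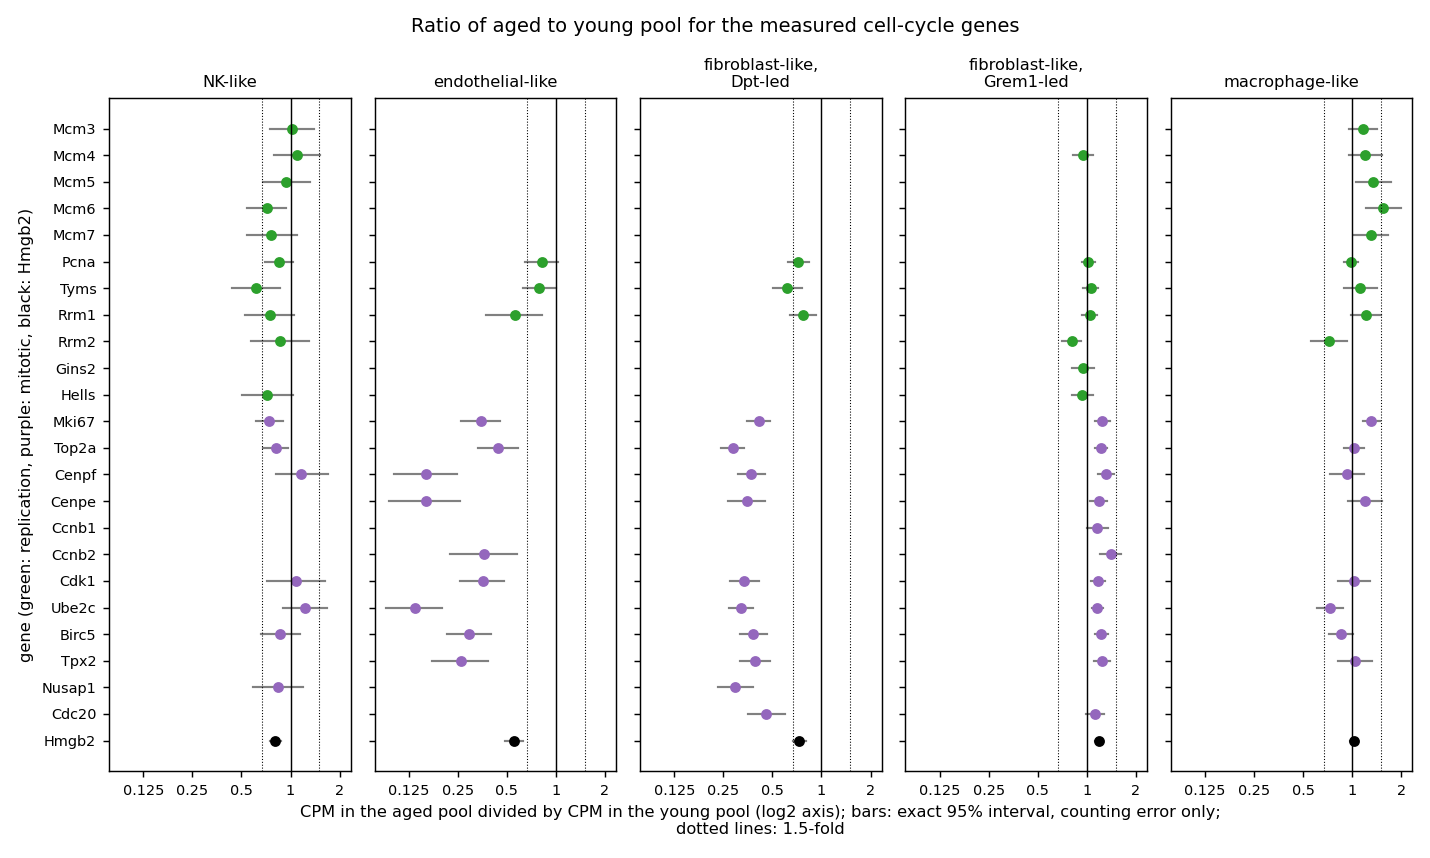
Aged to young ratio of CPM (log axis) for each measured member in NK-like cells, endothelial-like cells, the Dpt-led and Grem1-led fibroblast-like clusters and macrophage-like cells; each point is a gene, replication genes, mitotic genes and Hmgb2 have their own colours, and dotted lines mark 1.5-fold. Measured mitotic genes of endothelial-like cells (0.136 to 0.443) and of the Dpt-led cluster (0.286 to 0.460) lie below the lower line, while those of the Grem1-led cluster lie above 1.

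Macrophage-like cells lay close to equality. Of 18 measured members 13 had a ratio above 1, and only Mcm6 passed 1.5-fold (14.9 and 23.1 CPM, ratio 1.55, 1.21 to 2.00), where 0.58% of all genes were higher. Mcm6 reached 20 CPM in the aged pool only, so this count is set by the minimum. The lowest ratio was that of Rrm2 (21.4 and 15.4 CPM, ratio 0.719, 0.556 to 0.927). The replication set had a ratio of 1.14 (1.07 to 1.2) and the mitotic set of 0.992 (0.941 to 1.04). In the C1q-led cluster the mitotic set stood at 315 and 386 CPM and none of 14 measured members was 1.5-fold apart (1.73% of all genes were). In the Acp5-led cluster it stood at 749 and 506 CPM and 4 of 8 measured members were lower (1.55% of all genes were), with 63.0% and 82.8% of the mitotic UMIs in 5 of the 61 and 43 cells.

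NK-like cells had a lower level of both sets in the aged pool at nearly the same share of cycle-positive cells. The ratio was 0.811 (0.743 to 0.886) for replication, 0.847 (0.780 to 0.919) for mitosis and 0.807 (0.746 to 0.873) for Hmgb2. Of 18 measured members only Tyms passed 1.5-fold (82.1 and 50.3 CPM, ratio 0.613, 0.438 to 0.857), where 2.12% of all genes were lower, and Ube2c had the highest ratio (70.1 and 85.5 CPM, ratio 1.22, 0.895 to 1.68). The median log2 ratio was -0.25, against 0.02 for all genes. The 5 cells with the most mitotic UMIs held 69.4% and 52.4% of them. Without the 5 cells with the most UMIs of the set in each pool, the mitotic sum was 420.5 and 477 CPM, higher in the aged pool, and the replication sum was 796 and 776 CPM. Neutrophil markers in the class stood at 7526 and 3441 CPM; their part was not tested.

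Monocyte-like and neutrophil-like cells had too few UMIs for most members. None of 4 measured members in monocyte-like cells was 1.5-fold apart (1.1% of all genes were), with ratios from 0.855 for Mcm4 to 1.37 for Mki67. Their mitotic set had a ratio of 1.35 (1.2 to 1.52), but 61.9% of the aged UMIs came from 5 cells, and without the 5 cells with the most UMIs of the set it stood at 59.4 and 52.8 CPM. In neutrophil-like cells only Pcna (ratio 1.16, 1.06 to 1.28) and Hmgb2 (ratio 0.902, 0.885 to 0.919) were measured, and neither was 1.5-fold apart (0.522% of all genes were). Their mitotic set had a ratio of 1.18 (1.01 to 1.39).

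**Figure D5:**
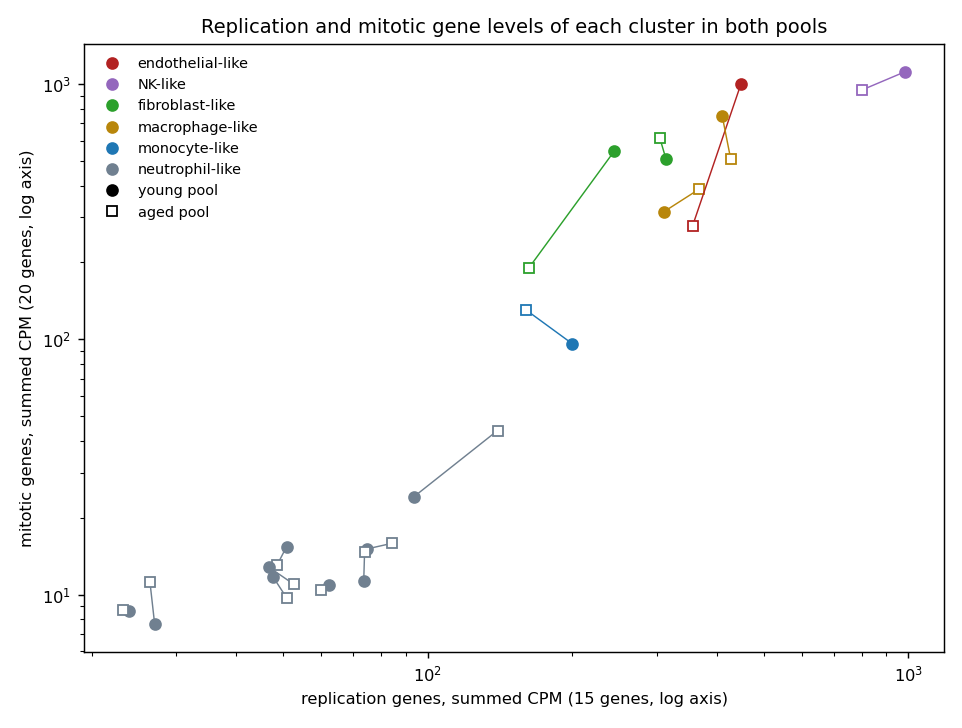
Summed CPM of the 15 replication genes (horizontal, log axis) and of the 20 mitotic genes (vertical, log axis) in each cluster of the 6 host classes (colours), with a line joining the young pool (filled circle) to the aged pool (open square). Neutrophil-like clusters lie at the lower left, NK-like cells at the upper right (986 and 1117 CPM in the young pool), and endothelial-like cells drop along the vertical axis from 997 to 278 CPM.

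Among entry regulators, the D cyclin with the most UMIs differed between classes. Ccnd1 led in fibroblast-like cells at 469 and 287 CPM and in endothelial-like cells at 238 and 287 CPM, followed in both by its partner kinase gene Cdk4 at 168 and 145 CPM and at 138 and 108 CPM. NK-like cells had Ccnd2 at 205 and 243 CPM and Ccnd3 at 127 and 137 CPM, and monocyte-like cells had Ccnd3 at 125 and 111 CPM. Neutrophil-like cells had the CDK adaptor gene Cks2 at 173 and 192 CPM with Ccnd3 at 56.3 and 58.9 CPM. In NK-like cells 23 of 23 genes of DNA synthesis and nucleotide supply with at least 20 UMIs were at least 2 times the median of the other classes in both pools, led by Dut, which removes dUTP, at 173 and 158 CPM. Beside this stood 16.8% of all genes, a share that also required 20 CPM in the class or in the median.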

How the data were processed

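Single-cell 3′ gene expression was measured in 1 library per matrix age. Per the submitters' processing notes the authors used Cell Ranger 6.0.0 with GRCh38 and mm10; the deposited filtered matrices hold raw counts, whole UMIs per gene and barcode, for 32285 mouse genes, 36601 human genes and 52 antibody features. The antibody rows were not used, so class names were not checked by surface proteins.

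Mouse barcodes (a share of 90% or more of gene UMIs) were kept from 500 UMIs and 300 genes upward with a mitochondrial share no higher than 20%, and doublets were removed per pool (Scrublet in scanpy 1.11.5, expected rate 0.1, score limit 0.25). Counts were scaled to 10000 per cell and log-transformed, and cells were clustered together (2000 variable genes, 30 components, 15 neighbours, leidenalg 0.10.2 at resolution 1, seed 1). For this 241 genes were left out, among them the 36, the other listed cell cycle genes and histone genes. The lists of 13 inhibitors and of 14 growth factor receptors and early growth genes stayed in. A cluster took the name of 1 of 20 marker sets when it had at least 20 cells and 3 detected markers and its leading genes did not favour another set. Clusters failing this stayed unnamed. Counts were summed per class and pool and given as CPM of mouse UMIs. Shares were taken after drawing 2000 UMIs per cell without replacement. Intervals are exact (Poisson for levels, Clopper-Pearson for shares, conditional binomial for ratios) at 95%. Python 3.11.15, numpy 2.4.6, scipy 1.17.1, R 4.3.3 and edgeR 4.0.16 (TMM factors only) were used, and the steps were tested on simulated data.

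Named in each class were the 3 members of each set with the highest CPM over both pools, Mki67, Top2a, Pcna and Hmgb2, the measured members with the lowest and the highest ratio, and up to 2 leading genes of each other list; other genes were named after their values were seen. The members and lists were chosen with earlier results of these data known. Alternatives covered the number of genes, thinning depth, clustering, purity, doublets, minimum counts, scaling and cell weights. Mouse promoter and protein sequences were not used here.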

Additional observations from a re-analysis of the deposited data

Results flagged for a closer look

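The aged to young ratio of the summed mitotic genes lay on opposite sides of 1 in different host classes, with intervals of counting error that leave out 1. It was 0.279 in endothelial-like, 0.846 in fibroblast-like and 0.847 in NK-like cells, and 1.35 in monocyte-like and 1.18 in neutrophil-like cells. Without the 5 cells with the most UMIs of the set in each pool, the young and aged sums were 59.4 and 52.8 CPM in monocyte-like and 420.5 and 477 CPM in NK-like cells, so both ratios turned. In neutrophil-like cells the sums were then close to each other, at 12.9 and 14.0 CPM, a low level. They stayed lower in the aged pool in endothelial-like (529 and 107 CPM) and fibroblast-like cells (408 and 334 CPM). With 1 library per group the difference was not tested.

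Clusters of 1 class also lay on opposite sides. The ratio was 0.349 in the Dpt-led and 1.21 in the Grem1-led fibroblast-like cluster, and 1.23 in the C1q-led and 0.676 in the Acp5-led macrophage-like cluster. These differences were not tested either.

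A signal outside the classes compared lay in an unnamed cluster of 213 cells with a median of 672 UMIs, led by Rhox5, Phgdh, Fdps, Ube2c and Birc5. The 35 genes summed there to 3967 CPM in the young and 4705 CPM in the aged pool, above every named class. Of its cells, 94 of 101 and 93 of 112 had a barcode that was also a mouse cell of the other pool, and nearly all were too shallow to be thinned to 2000 UMIs.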

How the results depend on the processing

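No paired analysis was possible because the labels carry no replicate numbers and each group has 1 library. For the same reason no library could be left out. Of the shares under all alternatives, 64 moved by less than their interval and 66 by more; of the counts of members past 1.5-fold, 46 stayed within 1.5 times and 25 did not. Where no share of all genes stands beside a count of members, the count shows only how far it moved. Neutrophil-like cells were lowest in 22 of 22 combinations of setting and pool, and monocyte-like cells next lowest in 21. Values are given as young and aged.

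With 2 genes in place of 3 the shares were 14.4% and 12.2% (fibroblast-like), 27.3% (endothelial-like, young), 14.6% and 12.4% (macrophage-like), 7.11% and 5.41% (monocyte-like), 26.0% and 26.6% (NK-like) and 0.329% and 0.492% (neutrophil-like). With 5 genes they were 6.62% and 5.26% (fibroblast-like), 5.99% (macrophage-like, young), 0.693% and 0.285% (monocyte-like), 10.6% (NK-like, aged) and 0% and 0% (neutrophil-like). Fewer or more genes required move a share by construction, as does depth.

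Thinned to 1000 UMIs the shares were 5.76% and 5.24% (fibroblast-like), 12.1% (endothelial-like, young), 6.36% (macrophage-like, young), 1.02% and 0.420% (monocyte-like), 9.22% and 8.54% (NK-like) and 0% and 0% (neutrophil-like). Thinned to 5000 UMIs, chosen after seeing the data, they were 13.9% and 12.4% (fibroblast-like), 28.6% and 17.9% (endothelial-like), 16.5% and 14.3% (macrophage-like), 5.82% and 4.20% (monocyte-like), 37.9% and 44.7% (NK-like) and 0% and 0.538% (neutrophil-like). Without thinning they were 58.6% and 47.2%, 50% and 43.8%, 31.2% and 29.3%, 14.2% and 10.1%, and 24.5% and 26.7% in fibroblast-like, endothelial-like, macrophage-like, monocyte-like and NK-like cells.

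With cell cycle genes kept in the clustering, 145 of 157 cycle-positive and 886 of all 1789 fibroblast-like cells fell in unnamed clusters. Among cells still named fibroblast-like the shares were 2.04% and 0.990%. By that clustering 0 of 3 fibroblast-like and 0 of 19 macrophage-like members passed 1.5-fold. At resolution 2 the young macrophage-like share was 14.5%, and 3 of 23 macrophage-like and 2 of 6 monocyte-like members passed. With a purity of 98%, which left out 16011 of 19272 neutrophil-like cells, the shares were 7.47% and 5.49% (fibroblast-like), 13.2% (macrophage-like, young) and 0% and 0% (neutrophil-like), and 14 of 20 fibroblast-like (beside 1.90% of all genes), 0 of 22 macrophage-like and 1 of 3 monocyte-like members passed. Without doublet removal 0 of 15 macrophage-like and 1 of 6 monocyte-like members passed.

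With 20 UMIs in place of 100 as the minimum, 19 of 27 endothelial-like and 5 of 28 NK-like members passed, beside 7.76% and 12.1% of all genes. With no minimum, 2 fibroblast-like, 28 endothelial-like, 5 macrophage-like, 20 monocyte-like, 8 NK-like and 13 neutrophil-like members of 36 passed, beside 21.3%, 25.1%, 19.0%, 20.7%, 32.2% and 24.9% of all genes. With every cell weighted equally, 0 of 11 fibroblast-like and 2 of 18 NK-like members passed.

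The following were also chosen after seeing the data. Without the 5 cells with the most UMIs of the set, 5 of 7 endothelial-like and 0 of 11 NK-like members passed. The clusters taken alone gave shares of 5.63% and 2.91% (Dpt-led), 14.0% and 14.4% (Grem1-led), 7.19% (C1q-led, young) and 27.9% and 16.3% (Acp5-led), and counts of 11 of 14, 0 of 19, 0 of 14 and 4 of 8. The cause of changes other than those of depth, gene number and minimum was not tested. Leaving out shared barcodes, or scaling by TMM or by median ratios, moved no value past these limits.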

Other observations

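Of the remaining host cells, pericyte-like or smooth muscle-like cells had 0 of 15 cycle-positive cells in the young pool, where 3 counts of the total would be 20%, and 5 of 40 (12.5%; 4.19 to 26.8%) in the aged pool. Luminal epithelium-like cells had 6 of 101 (5.94%) and 3 of 60 (5.0%), and dendritic-like cells 0 of 31 and 0 of 29. An unnamed cluster led by Ccl21a, Mmrn1, Lyve1 and Prox1, genes of lymphatic vessels, had 1 of 27 (3.70%) and 5 of 19 (26.3%; 9.15 to 51.2%), with 70.9% of the aged mitotic UMIs in a single cell. An unnamed cluster led by Camp, Ngp and Ltf, granule genes of immature neutrophils, had 2 of 70 (2.86%) and 2 of 89 (2.25%), and its mitotic genes summed to 411 and 44.9 CPM, with 51.8% of the young UMIs in a single cell.

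Among neutrophil-like clusters, the one led by Il23a, Tnf and Gpr84, which encode cytokines and a fatty acid receptor, had the highest sum of both sets, at 93.8 and 139.8 CPM for replication and 24.2 and 43.9 CPM for mitosis. Much of each sum was 1 gene: Pcna gave 63.7 and 100.3 CPM and Mki67 11.1 and 24.8 CPM. Top2a stood at 2.11 and 1.77 CPM and Ccna2 at 0 in both pools. The cluster held both cycle-positive neutrophil-like cells, 1 of 382 and 1 of 489, and no cell with 3 mitotic genes.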
